A study of Mus musculus with 6 samples.

Results

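The regulators that carry male germ cells from the undifferentiated spermatogonium into meiosis were followed in neonatal and adult mouse testis. They are 10 genes, *Stra8*, *Sohlh1*, *Sohlh2*, *Sox3*, *Neurog3*, *Dmrt1*, *Dmrtb1*, *Meioc*, *Figla* and *Lhx8*, out of 19053 genes named on the array, and each was taken from the mRNA probes through its RefSeq accession. Of the 10 genes, 9 had an mRNA probe, 1 probe each, and *Dmrtb1* had none. The study profiled long noncoding RNAs (lncRNAs) and mRNAs with 1-colour microarrays in the testis of 2 ages. Whole testis of male C57BL/6 mice (C57/BL6 in the sample labels) was taken at 6 days after birth (neonatal) or at 8 weeks (adult), with no treatment named. Each of the 3 arrays per age stands for a group of mice and not for an animal, and per the paper more neonatal than adult mice were used.

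Spermatogonia are the mitotic germ cells at the base of the seminiferous tubule. A small undifferentiated pool renews itself, and retinoic acid moves its progeny into differentiation and later into meiosis, a passage controlled by transcription factors of the basic helix-loop-helix (bHLH), Sox and DM-domain families. In the neonatal testis the germ cells are spermatogonia and their immediate precursors, whereas the adult testis is filled mainly by spermatocytes and spermatids, and several of the same regulators also act in the oocyte.

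Levels are given as normalized log2 signal, the background-subtracted signal of a probe relative to the array's own 75th percentile, so that 0 marks that percentile. A gene was called changed when the adult-to-neonatal fold change reached 5-fold and the limma adjusted p was at most 0.05. Scanner software had marked 22 of the 54 spots of the 9 probes as outliers, 13 of them among the 18 spots of replicate 3. With outlier-flagged spots left out, 5 genes kept at least 2 complete neonatal and adult pairs, and 4 of these 5 were lower in adult testis (*Stra8*, *Sohlh1*, *Sox3* and *Neurog3*), beside 13.6% of 15121 mRNA probes tested that were lower. Without replicate 1 or 2, or without 1 array of either, this count was 1, because *Stra8*, *Sohlh1* and *Sox3* then had too few values to be tested. None of the 5 was higher, beside 12.6% of the mRNA probes, and 0 had a higher value at an unadjusted p of at most 0.05 in limma or in the methods' t-test. *Dmrt1*, *Meioc*, *Figla* and *Lhx8* could be tested only with the outlier-flagged spots kept, and their values rest on such spots. With these spots kept, 6 of 9 genes were lower (*Dmrt1* and *Lhx8* in addition), beside 15.2% of 19310 mRNA probes, and 0 were higher, beside 12.8%. When only an unadjusted p of at most 0.05 was asked for, limma gave 1 higher gene among the 9 (*Meioc*) and the methods' t-test gave 0. The median log2 fold change was -3.25 over the 5 genes and -3.27 over the 9, against -0.39 and -0.49 over all mRNA probes tested in the same ways. The levels at the 2 ages did not overlap for 8 of the 9 genes, all but *Figla*, beside 72.4% of the 19310 mRNA probes. In whole tissue, fewer cells of a type and less RNA per cell cannot be told apart, and this holds for every gene described here.

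*Sohlh1* and *Sohlh2* encode germ cell bHLH factors that are needed for spermatogonia to differentiate. *Sohlh1* (NM_001001714, chromosome 2) had a normalized log2 signal of 2.15, 2.55 and 2.67 in neonatal replicates 1 to 3 and of -0.84, -0.95 and -0.66 in adult replicates 1 to 3, with both spots of replicate 3 outlier-flagged. All neonatal values lay above all adult values. Over the other 2 pairs the log2 fold change was -3.25 (SE 0.20, limma adjusted p = 0.00148), or 9.50-fold. The fold of *Sohlh1* was the same in the methods' t-test, where the unadjusted p was 0.0501 and the gene was not called. *Sohlh2* (NM_028937, chromosome 3), whose product pairs with that of *Sohlh1*, had a signal of 2.15, 2.31 and 2.19 in neonatal testis and of 0.58, 0.57 and 0.67 in adult testis, again with both spots of replicate 3 outlier-flagged. The ages did not overlap, and the values within an age lay close together. The log2 fold change of *Sohlh2* was -1.65 (SE 0.15, limma adjusted p = 0.00313), a 3.14-fold difference that fell short of the 5-fold threshold, and in the methods' t-test after adjustment its adjusted p was 0.0674.

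*Sox3* encodes an X-linked HMG-box transcription factor of spermatogonia. *Sox3* (NM_009237, chromosome X) had a normalized log2 signal of 3.29, 3.28 and 3.59 in the neonatal replicates and of -0.52, -0.58 and 0.04 in the adult replicates, with both spots of replicate 3 outlier-flagged. Neonatal testis was higher in every pair. The log2 fold change over the other 2 pairs was -3.83 (SE 0.14, limma adjusted p = 0.000529), which is 14.2-fold. *Neurog3* encodes a bHLH factor of the undifferentiated spermatogonia that are about to differentiate, and is better known for endocrine cells of the pancreas. *Neurog3* (NM_009719, chromosome 10) was the dim member, at -2.80, -2.46 and -3.27 in the neonatal replicates and at -6.57, -7.06 and -6.94 in the adult replicates, with 0 outlier-flagged spots. The neonatal spots were all well above background, while in adult testis only 1 of 3 was, and the adult values lay near the floor of the scale at -7.22. Over 3 pairs the log2 fold change of *Neurog3* was -4.02 (SE 0.23, limma adjusted p = 0.000399), or 16.2-fold. With another background correction (normexp) it was -1.68, below the 5-fold threshold.

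*Dmrt1* encodes a DM-domain transcription factor that is present in Sertoli cells as well as in spermatogonia, where it holds back entry into meiosis. *Dmrt1* (NM_015826, chromosome 19) had a normalized log2 signal of 3.95, 3.85 and 3.56 in the neonatal replicates and of 1.03, 0.74 and -0.38 in the adult replicates, and only the spot of adult replicate 3 was free of an outlier flag. Every neonatal value was above every adult value, and adult replicate 3 was the lowest of the 6 arrays. Its log2 fold change with these spots kept came to -3.32 (SE 0.24, limma adjusted p = 0.000401). Its relative *Dmrtb1*, which acts at the passage from mitosis to meiosis, was without a probe here and no level is given.

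*Stra8*, the gene stimulated by retinoic acid that germ cells need to start meiosis, was bright at both ages. *Stra8* (NM_009292, chromosome 6) had a normalized log2 signal of 4.30, 4.23 and 4.28 in the neonatal replicates and of 1.65, 1.68 and 1.54 in the adult replicates, with both spots of replicate 3 outlier-flagged. The ages were separated by far more than the spread within either of them. Over the other 2 pairs the log2 fold change was -2.60 (SE 0.14, limma adjusted p = 0.00112), or 6.07-fold. *Meioc* encodes a coiled-coil protein that keeps germ cells in meiotic prophase once they have entered it. *Meioc* (NM_001127576, chromosome 11) had a signal of 1.35, 0.54 and 0.19 in the neonatal replicates, all outlier-flagged, and of 1.84, 1.61 and 1.56 in the adult replicates, of which replicate 3 was outlier-flagged. *Meioc* was the member with the higher values in adult testis, and the highest neonatal value lay 0.21 below the lowest adult value. With these spots kept *Meioc* had a log2 fold change of 0.98 (SE 0.21, limma adjusted p = 0.0126), a 1.97-fold difference that was not called, and its adjusted p reached 0.107 over the alternatives.

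*Figla* and *Lhx8* are transcription factor genes known mainly for the ovary, *Figla* for switching on the genes of the egg coat and *Lhx8*, a LIM homeobox gene, for early oocyte differentiation. *Figla* (NM_012013, chromosome 6) had a normalized log2 signal of -0.75, -0.96 and -1.99 in the neonatal replicates, all outlier-flagged, and of -2.00, -1.62 and -2.43 in the adult replicates. The ages overlapped, since neonatal replicate 3 lay below adult replicate 2. Its log2 fold change with these spots kept came to -0.78 (SE 0.20, limma adjusted p = 0.0213), a 1.71-fold difference that was not called, and its adjusted p reached 0.320 over the alternatives. *Lhx8* (NM_010713, chromosome 3) was at 0.56, -0.42 and 1.35 in the neonatal replicates, with replicates 2 and 3 outlier-flagged, and at -5.40, -4.49 and -4.46 in the adult replicates. No adult value came near the neonatal values, although the neonatal replicates themselves differed widely. With these spots kept *Lhx8* had a log2 fold change of -5.28 (SE 0.43, limma adjusted p = 0.000547), or 38.9-fold, and all 6 of its spots were well above background. With replicates or single arrays left out in turn, the log2 fold change of *Lhx8* ran from -5.89 to -4.86.

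**Figure D1:**
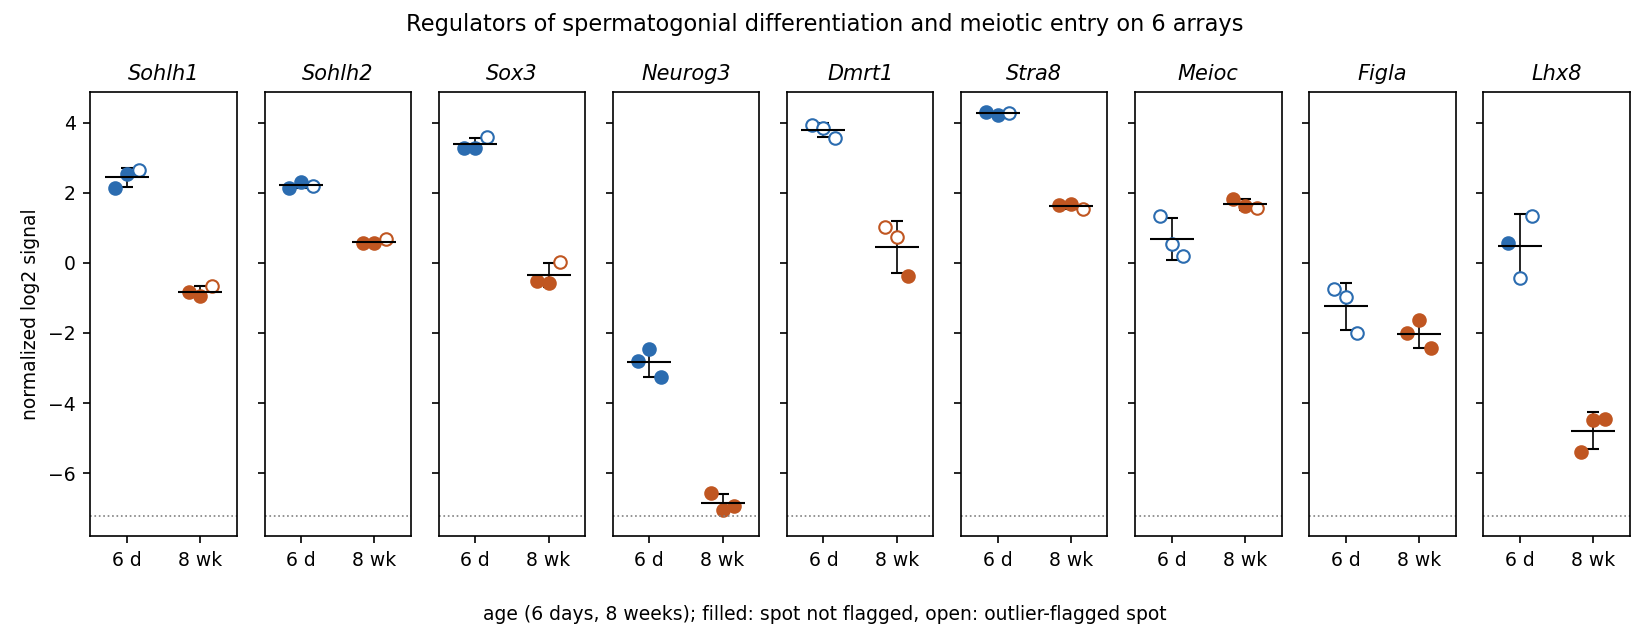
Normalized log2 signal of the 9 genes with a probe in neonatal (6 d, blue) and adult (8 wk, orange) testis, 1 point per array, filled where the spot was not outlier-flagged and open where it was; horizontal bars give the mean and whiskers the SD over 3 arrays, and the dotted line is the floor at -7.22. The neonatal points lie above the adult points for 7 genes, below them for *Meioc*, and among them for *Figla*.

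The arrays had been scanned at 2 times, replicates 1 and 2 of both ages in one scan and replicate 3 of both ages in the other, so each scan held both ages. With the spots kept, the log2 difference of adult from neonatal testis in the scan of replicates 1 and 2, and then in the scan of replicate 3, was -2.60 and -2.75 for *Stra8*, -3.25 and -3.33 for *Sohlh1*, -1.65 and -1.51 for *Sohlh2*, and -3.83 and -3.54 for *Sox3*. It was -4.19 and -3.68 for *Neurog3*, -3.01 and -3.95 for *Dmrt1*, and -5.02 and -5.82 for *Lhx8*. *Meioc* gave 0.78 and 1.37, and *Figla* gave -0.95 and -0.44. Every gene kept its direction in both scans. The scan of replicate 3 holds 1 pair and gives a value with no test.

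The mRNA genes with the profile nearest to each member were sought among 14695 probes well above background on all 6 arrays, as the root mean square difference of centred log2 values over the 6 arrays, with outlier-flagged spots kept. *Neurog3*, which was not well above background on every array, was not compared. *Stra8* was nearest to *Nfia* (0.0328) and *Prkd1* (0.0495), and *Sohlh2* to *Sult1a1* (0.0247) and *Samhd1* (0.0508). *Sohlh1* was nearest to *C1qtnf7* (0.0714) and *Schip1* (0.0718), and *Sox3* to *Samd4* (0.0755) and *Dusp9* (0.0812). Wider differences were found for *Dmrt1*, with *Prx* (0.108) and *Serp1* (0.155), and for *Meioc*, with *Sgsm3* (0.180) and *Map6* (0.181). *Figla* was nearest to *Olfr558* (0.0432) and *Zfp119b* (0.0703). *Lhx8* had no near neighbour, with *Acp6* at 0.260 and *Tspan14* at 0.375.

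Retinoic acid is made, bound and broken down by a small set of enzymes, carriers and receptors, upstream of *Stra8*. Of 23 such genes 20 were tested with outlier-flagged spots left out, and 6 were lower and 1 higher in adult testis, with a median log2 fold change of -1.44 against -0.39 over all mRNA probes tested. Of those probes 13.6% were lower and 12.6% higher, and the counts of this list and of the lists that follow are to be read against these shares and this median. The receptor gene *Rarb* fell by 3.55 on the log2 scale (SE 0.13, limma adjusted p = 0.000178), the carrier gene *Crabp1* fell by 3.36 and *Stra6*, for the membrane receptor of retinol-binding protein, fell by 3.18. *Rdh11*, for a retinol dehydrogenase, rose by 3.05. In the methods' t-test after Benjamini-Hochberg adjustment *Stra6* (adjusted p = 0.0501) and *Rdh11* (adjusted p = 0.103) were not called, *Rdh11* not without adjustment either, and with normexp *Rarb* was not. Leaving out replicates or single arrays in turn gave 2 to 6 lower and 0 to 1 higher. Keeping outlier-flagged spots gave 6 lower and 2 higher of 22 genes, with a median of -1.35. On no array was *Ttr* well above background.

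Of 22 genes of undifferentiated spermatogonia, the pool in which *Neurog3* acts, 17 were tested, and 8 were lower and 1 higher in adult testis. Their median log2 fold change was -1.58, or -1.20 where genes not well above background at one age entered at their bound. *Sall4*, a zinc finger factor of undifferentiated cells, fell by 4.43 (SE 0.36, limma adjusted p = 0.00257), *Upp1* fell by 3.02, and *Bcl6b*, well above background on 1 of 3 adult arrays, fell by 3.00. Over the fits that left out replicates or arrays, the log2 fold change of *Sall4* ran from -4.43 to -3.63. *Id4*, for an inhibitor of bHLH factors, rose by 2.76. *Sall4* (adjusted p = 0.121) and *Id4* (adjusted p = 0.0793) were not called in the methods' t-test after adjustment, *Sall4* was not called without adjustment or without the filter on dim probes, and *Upp1* and *Bcl6b* were not called with normexp. The fits that left out replicates or arrays gave 5 to 8 lower and 0 to 1 higher. When outlier-flagged spots were kept, 11 of 21 were lower and 1 higher, with a median of -2.47. On no array was *Gfra1* well above background. Of 16 genes listed for differentiating spermatogonia, the step that needs *Sohlh1* and *Sohlh2*, 13 were tested, and 6 were lower and 0 higher, with a median of -2.27. The lower genes include *Kitl*, which encodes the ligand of the *Kit* product and is not itself a marker of these cells. Not every other gene of the list is particular to this state either. *Kit* itself had a log2 fold change of -1.75 and was not called. At an unadjusted p of at most 0.05 and any fold, 2 of the 13 genes were higher in limma and 0 in the methods' t-test. The cyclin gene *Ccnd2* fell by 4.07 (SE 0.14, limma adjusted p = 0.000477), the DNA methyltransferase gene *Dnmt3a* fell by 3.76 and the X-linked homeobox gene *Rhox10* fell by 3.30, although the t-test after adjustment did not call *Rhox10* (adjusted p = 0.0616). The count of lower genes ran from 0 (without replicate 2 or its neonatal array) to 7 over the fits that left out replicates or arrays. The same list gave 8 lower and 0 higher of 15 with outlier-flagged spots kept, and a median of -2.36.

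The list of meiotic entry and early prophase, where *Stra8* and *Meioc* act, held 42 genes, 33 of them with a probe and 19 tested, of which 5 were higher and 0 lower in adult testis, with a median of 0.65. At an unadjusted p of at most 0.05 and any fold, 9 of the 19 were higher and 6 lower in limma. In the methods' t-test 7 were higher and 2 lower. The lower genes all fell by less than 5-fold, and in limma they include *Dmc1* (-2.05) and *Tex11* (-1.95). The count of genes called higher was 0 without replicate 1 or 2 or without the adult array of either. It was 2 without the neonatal array of either, and 2 in the methods' t-test after adjustment. Some genes of this list, such as *Ccna1*, are not particular to entry and early prophase. *Ccna1*, a cyclin of meiosis, rose by 7.63 (SE 0.19, limma adjusted p = 0.000288), *Spo11*, which makes the DNA breaks of recombination, rose by 4.58 and *Terb1*, which ties telomeres to the nuclear envelope, rose by 4.35. *Spo11* (adjusted p = 0.0768) and *Terb1* (adjusted p = 0.144) were not called in that t-test, nor *Terb1* without adjustment or without the filter on dim probes. With outlier-flagged spots kept, 32 of these genes were tested and 9 were higher and 0 lower, with a median of 0.86.

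Of 24 genes named for the oocyte, among them known targets of *Figla*, 20 were tested, with 2 higher, 4 lower and a median of -0.41, close to the -0.39 of all mRNA probes. *Tcl1* fell by 3.94 (SE 0.18, limma adjusted p = 0.000843) and *Dppa3* fell by 3.88. *Nobox*, a homeobox gene of the oocyte, had no adult array well above background and was at least 7.53-fold lower there, a bound set by the lowest signals that counted as well above background. *Padi6* was called higher in adult testis over the pairs of replicates 1 and 2, whose neonatal values both lay at the floor, so no fold is given. *Oog1*, which has near-identical copies and is uncertain for that reason, was at least 10.7-fold higher. *Tcl1* was not called in the methods' t-test after adjustment (adjusted p = 0.0663), and *Nobox* and *Oog1* were not called with normexp. With replicates or arrays left out in turn, 2 to 6 were lower and 1 to 2 higher. Keeping outlier-flagged spots gave 5 lower and 4 higher of 23 genes and a median of -0.32. The egg coat gene *Zp2* was well above background nowhere among the 6 arrays.

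In the Dmrt family, 7 of 11 genes were tested, and 2 were higher and 1 lower, with a median of 0.66. *Dmrtc1b*, which has near-identical copies and is uncertain for that reason, rose by 4.82, *Dmrtc2* rose by 3.66 and *Dmrt3* fell by 3.70, and in the t-test after adjustment neither *Dmrtc2* (adjusted p = 0.0765) nor *Dmrt3* (adjusted p = 0.0739) was called. Fits without a replicate or array gave 0 to 2 higher and 0 to 1 lower. With outlier-flagged spots kept, 3 of 9 Dmrt genes were lower, *Dmrt1* among them, and 2 were higher, and the median was -0.95. In the Sox family, 15 of 20 genes were tested, with 3 higher, 2 lower and a median of -0.19. *Sox5* rose by 4.87, *Sox30* rose by 4.76 and *Sox14* rose by 3.08, whereas *Sox12* fell by 3.35 beside *Sox3*, and *Sox14* was not called with normexp. For the Sox genes such fits gave 2 to 3 higher and 1 to 4 lower. With outlier-flagged spots kept, 5 of 18 Sox genes were lower and 3 higher, and the median was -1.05. Neither *Sry* nor *Sox15* was well above background on an array.

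In the LIM homeobox family of *Lhx8*, 9 of 12 genes were tested, with 2 lower, 0 higher and a median of -1.01, or -0.75 with genes at their bound. At an unadjusted p of at most 0.05 and any fold, 2 of the 9 were higher in limma and 1 in the methods' t-test. *Lhx9* fell by 2.80 and *Lhx6* fell by 2.42, each by its brightest probe, and the probes of each of these genes disagreed on the call. *Lhx9* was not called in the t-test after adjustment (adjusted p = 0.0720), and *Lhx6* was not called with normexp. Fits without a replicate or array gave 0 to 2 lower and 0 to 1 higher. When outlier-flagged spots were kept, 3 of 11 genes were lower, *Lhx8* among them, and 0 higher, and the median was again -1.01. On no array was *Lhx5* well above background. Among the bHLH factors of the germline and their relatives, 15 of 20 were tested, with 7 lower, 4 higher and a median of -1.65. This list holds the members *Sohlh1*, *Sohlh2*, *Neurog3* and *Figla*. *Sohlh1* and *Neurog3* are among its lower genes, and its median is the value of *Sohlh2*. *Mesp1* rose by 7.73 (SE 0.14, limma adjusted p = 0.000185) and *Tcfl5*, a factor of spermatocytes, rose by 3.19. *Neurog1*, with no neonatal array well above background, was higher in adult testis by at least 23.7-fold, opposite to its relative *Neurog3*. *Id1* fell by 3.56 and *Msc* fell by 3.28, of which *Msc* was not called with normexp. Such fits gave 3 to 7 lower and 1 to 4 higher for these factors. With outlier-flagged spots kept, 9 of 18 were lower and 4 higher, with a median of -2.15. Neither *Tcf3* nor *Bhlhe41* was well above background on an array.

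**Figure D2:**
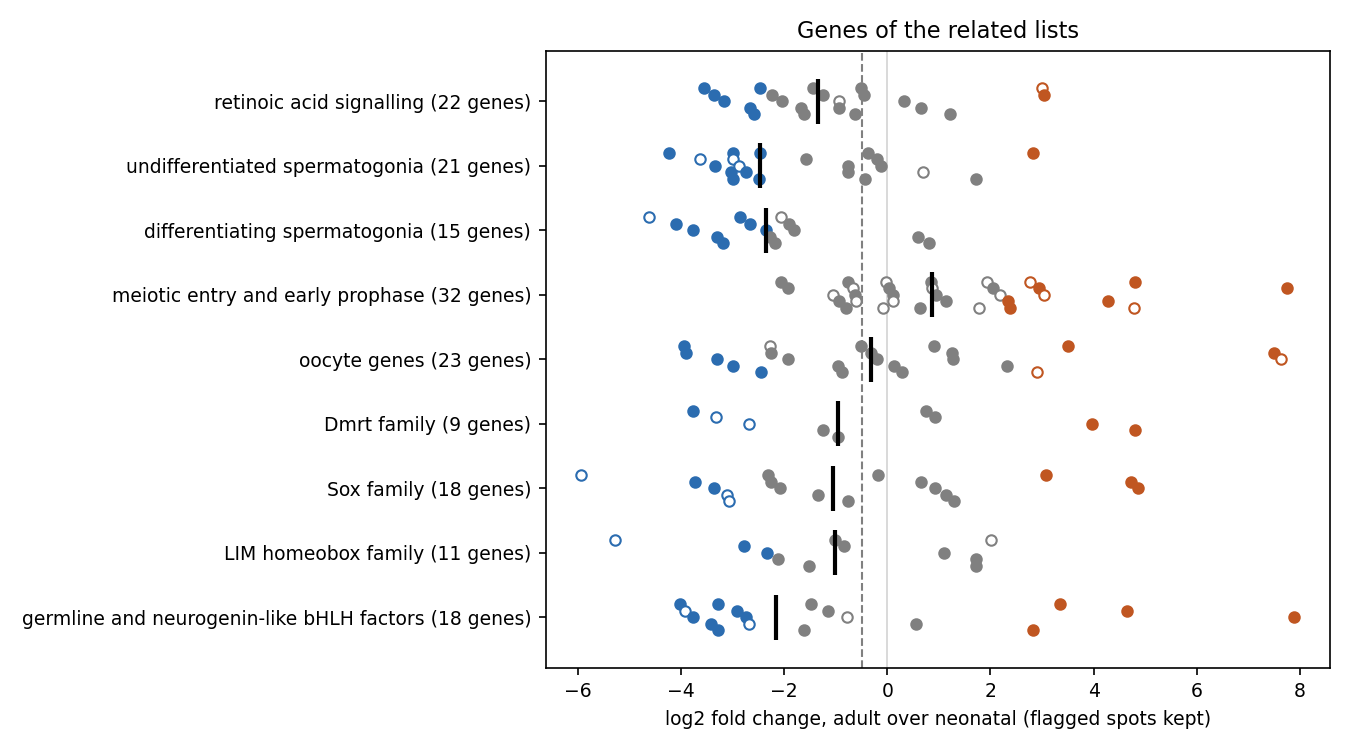
Log2 fold change, adult over neonatal, of each gene of the 9 lists with outlier-flagged spots kept, 1 point per gene by its brightest probe; blue points were called lower, orange points higher and grey points not called, and open points could be tested only with these spots kept. Black bars mark the median of each list and the dashed line the median of all mRNA probes, -0.49; genes not well above background at one age stand at their fitted value.

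Markers of the testicular cell types changed with age beside these genes, and their part in the differences was not tested. Levels of a marker list are the sum of scaled signals, in units of the 75th percentile of the array, with outlier-flagged spots kept. The 8 spermatid markers were each well above background on at least 1 array of either age and summed to 0.726, 0.768 and 0.845 in the neonatal replicates and to 1215, 1445 and 1671 in the adult replicates, with *Tnp1* the brightest in neonatal and *Prm2* in adult testis. The 7 spermatocyte markers summed to 21.3, 18.7 and 28.3 and then 105, 114 and 162, with *Ldhc* and *Piwil1* the brightest. Markers of germ cells of any stage, 6 of 7 with a probe and *Mael* the brightest, summed to 64.8, 72.2 and 47.4 in neonatal and 202, 222 and 193 in adult testis. These 3 sums were higher on every adult array than on any neonatal array, but not every gene in them was. *Dmc1*, well above background on 1 of 3 adult arrays, had a log2 fold change of -2.05, *Dppa4* of -1.49 and *Dazl* of -0.61, and the ages overlapped for *Sycp3* and *Ldhc*.

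The Sertoli cell markers, which bear on *Dmrt1*, summed to 113, 120 and 88.8 in the neonatal replicates and to 30.5, 24.9 and 23.4 in the adult replicates over 11 of 12 genes with a probe, with *Inha* the brightest. Peritubular myoid markers, led by *Myh11*, gave 21.8, 22.0 and 26.9 and then 5.46, 4.56 and 6.74, with 4 of 5 well above background and *Cnn1* well above background on no array, while *Actg2* had a log2 fold change of 2.02. Endothelial markers, 5 of 5 and led by *Cdh5*, gave 7.73, 8.86 and 14.9 and then 2.21, 1.84 and 3.31. These 3 sums were higher on every neonatal array than on any adult array. Erythroid markers, 5 of 7 with a probe and led by *Hba-a2*, gave 84.0, 109 and 119 in neonatal and 15.3, 35.7 and 31.6 in adult testis, while *Alas2* among them had a log2 fold change of 2.02. The sum of the Leydig cell markers, 8 of 8 with a probe, was higher in adult testis, at 31.9, 34.9 and 30.1 and then 82.9, 69.4 and 64.1, led by *Hsd3b1* in neonatal and *Insl3* in adult testis, while *Hsd3b1* (-1.06) and *Hsd17b3* (-2.03) had a negative log2 fold change. The sum of the macrophage markers, 5 of 6 with a probe, differed less, at 6.06, 5.96 and 5.73 and then 5.09, 5.27 and 5.49, led by *Csf1r* and *Mrc1*, with log2 fold changes of both signs, such as 1.33 for *Cd163*, -0.85 for *Adgre1* and -0.65 for *Cx3cr1*.

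The annotation of genomic context pairs 5 lncRNAs with members, 3 of them with *Sox3*. The study chose them as changed on these samples, so their values are a description. AK016899, intergenic and paired with *Dmrtb1*, had no neonatal array well above background and a normalized log2 signal of -2.54, -2.57 and -2.44 in the adult replicates, at least 24.4-fold higher. AK018857, bidirectional to *Meioc*, had a signal of -3.85, -3.60 and -3.48 in the neonatal replicates and of 2.55, 2.93 and 2.72 in the adult replicates, the adult spots all outlier-flagged, and rose by 6.37 (SE 0.13) with the spots kept. *Meioc* itself was not called.

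The lncRNAs near *Sox3* did not share 1 direction. AY512909 had a normalized log2 signal of -1.08, -0.99 and 0.15 in the neonatal replicates and of -5.19, -4.98 and -3.94 in the adult replicates, and fell by 4.06 (SE 0.10). AK135688 was at -6.57, -6.83 and -7.14 in the neonatal replicates, 2 of 3 well above background, and at -0.12, -0.01 and -0.98 in the adult replicates, all outlier-flagged, and rose by 6.48 (SE 0.17) with the spots kept. AK163488 had no neonatal array well above background and was at -3.91, -3.60 and -4.61 in the adult replicates, at least 8.49-fold higher. With normexp the log2 fold change of AK163488 was 1.73 and it was not called. AY512909 was therefore lower in adult testis, as *Sox3* was, and the other two were higher.

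Promoter windows from RefSeq (GRCm38.p6), 250 bases before to 50 bases after the gene start, were at hand for 8 of the 10 genes, 9 windows in all, with *Dmrtb1* giving 2. *Sox3* and *Dmrt1* are named only. The letters searched on both strands were CANNTG (the E-box, bound by bHLH factors), its forms CACGTG and CAGCTG, the nuclear receptor half-site AGGTCA and the core ACAATG, and every CACGTG or CAGCTG is also a CANNTG. At least 1 CANNTG stood in 72.3% of 32851 windows, CACGTG in 7.15%, CAGCTG in 16.3%, AGGTCA in 16.3% and ACAATG in 12.6%. CANNTG was found 5 times for *Sohlh1*, 4 for *Figla*, 3 in each *Dmrtb1* window, 1 for *Sohlh2* and 1 for *Neurog3*, and 0 times for *Stra8*, *Meioc* and *Lhx8*. CAGCTG stood once each for *Neurog3* and *Dmrtb1*. The *Sohlh1* window held 3 CACGTG, at bases 20, 40 and 59, where 29 windows (0.0883%) held 3 or more, and an AGGTCA at base 36 that overlaps the CACGTG at base 40. The *Stra8* window held 2 AGGTCA, at bases 57 and 213, where 1.81% of windows held 2 or more, and 1 ACAATG at base 106. These are matches of letters and not sites of binding.

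The windows of these genes are shown because they held repeats of CACGTG or AGGTCA, 5′ to 3′ along the gene, with CACGTG and AGGTCA as well as ACAATG in capitals. They lie at chr2:25847199-25847498 on the minus strand (*Sohlh1*) and chr6:34920698-34920997 on the plus strand (*Stra8*).
Sohlh1: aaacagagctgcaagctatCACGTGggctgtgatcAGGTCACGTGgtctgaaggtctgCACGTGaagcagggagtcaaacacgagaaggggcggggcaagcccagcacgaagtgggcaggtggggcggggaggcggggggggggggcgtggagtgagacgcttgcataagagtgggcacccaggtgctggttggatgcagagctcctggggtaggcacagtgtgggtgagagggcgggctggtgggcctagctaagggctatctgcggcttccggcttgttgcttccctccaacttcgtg
Stra8: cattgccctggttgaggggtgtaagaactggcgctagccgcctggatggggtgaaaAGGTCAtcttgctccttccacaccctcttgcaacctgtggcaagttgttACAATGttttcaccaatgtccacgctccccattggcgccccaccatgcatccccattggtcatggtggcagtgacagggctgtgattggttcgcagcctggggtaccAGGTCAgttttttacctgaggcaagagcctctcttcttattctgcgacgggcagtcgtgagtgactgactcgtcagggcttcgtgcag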

How the data were processed

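RNA of whole testis was labelled with Cy3 and hybridized to 6 Arraystar mouse lncRNA arrays, 3 per age. Per the file headers and the submitters' processing notes, the authors deposited Agilent Feature Extraction 10.5.1.1 output, in which the intensity of each spot is background-subtracted and not scaled between arrays. The authors' deposited log2 table holds 26828 probes. It was set against the scanner signals, and 99.8% of its values equal, within 0.001, the log2 of the signal (floor 5) less 1 constant for each array. Its medians per array were 1.28, 1.30, 1.27, 1.20, 1.27 and 1.22. The methods name quantile normalization, but values that differ from the signal by 1 constant per array are not quantile normalized. The constants lie close to the log2 of the median spot signal of each array, and what they stand for was not tested. The authors' values served as an alternative.

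Here 38031 spots per array that are not controls were used. Outlier-flagged spots were left out, from 6.11% to 30.7% of spots per array, most on both arrays of replicate 3. Spots of a probe were averaged, divided by the 75th percentile of the array (a signal from 745 to 2956), floored at -7.22 and taken to log2. Probes with 2 complete pairs that rose well above background on 1 array or more entered a limma fit (version 3.58.1, R 4.3.3) that took the replicate number as block, over lncRNA and mRNA probes together, with Benjamini-Hochberg adjustment. From 65.9% to 69.8% of spots per array were well above background and 0 were saturated. The number of arrays limits the precision. The fit was tested on simulated data in which every pair was complete and no spot was left out, unlike the data here. Tables and plots were made with Python 3.11.15, numpy 2.4.6, pandas 2.3.3 and matplotlib 3.10.9.

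The pairing comes from the replicate numbers in the labels and the paired test in the methods. Deviations of same-numbered arrays from their group means correlated at 0.401, 0.339 and 0.681. Arrays of different numbers within the scan of replicates 1 and 2 correlated at 0.432 and 0.374, close to the 0.401 and 0.339 of the same number, and arrays of different scans at -0.586 to -0.481. Deviations cancel out within an age, so the negative values between scans follow from the positive values within them. Within the scan of replicates 1 and 2 the replicate number made little difference, and replicate 3 cannot be told from its scan.

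RefSeq accessions named 21905 of 22464 mRNA probes (97.5%). A gene with several probes counts by its brightest. Where all arrays of an age had a probe not well above background, the fold is a lower bound, the mean of the bright age against the mean, per array, of the higher of the lowest signal well above background and the probe's own. From each list the genes named are up to 3 with the largest rise and 3 with the largest fall among those called. Genes not well above background at one age were ranked by their bound, so that *Nanos2* and *Tcf15*, both called lower, are not named. From each marker list, the brightest gene and markers not above background are named. Probes of *Elavl2*, *Lhx6*, *Lhx9*, *Rarg* and *Rbp4* disagreed on the call. No member met the rule for similar genes, which asked for no outlier-flagged spot on any array and a signal well above background on all 6, so these spots were kept for that comparison, a choice made after seeing the data, as was the reporting of *Dmrt1*, *Meioc*, *Figla* and *Lhx8* with such spots kept. The 2 lncRNA probes AY512909 and AK163488 were found through the study's list of lncRNA positions. Members and lists were chosen with earlier results of these data known.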

Additional observations from a re-analysis of the deposited data

How the results depend on the processing

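No fold change of a member, paired lncRNA or named list gene turned its direction under any alternative in which it had a value. Not every gene had a value in each of the 25 alternatives run, and an adjusted p was at hand in 17 to 23 settings per gene. The median of all mRNA probes did turn with normexp, and that of the Dmrt family did with outlier-flagged spots kept. Of the log2 fold changes of members and paired lncRNAs, 297 kept their side of the threshold, 4 lost the call and 1 gained it. *Sohlh1* lost it in the methods' t-test at an unchanged -3.25 (unadjusted p = 0.0501, adjusted p = 0.0857, range over its alternatives 0.000123 to 0.0857). With normexp background correction *Neurog3* was at -1.68 and AK163488 at 1.73, both not called; the cause was not tested. *Sohlh2*, at -1.65, was called with a 2-fold threshold, by construction. Without the replicate block, 4 members were lower (6 with outlier-flagged spots kept) and 3937 mRNA probes were called against 3970, and its removal changed no call of a member or paired lncRNA. With the scan as block 3973 mRNA probes were called.

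Leaving out replicates or single arrays in turn left 1 to 4 members called lower, 4 without arrays of replicate 3 and 1 without an array of replicate 1 or 2, because replicate 3 carries most outlier-flagged spots and *Stra8*, *Sohlh1*, *Sohlh2* and *Sox3* then have too few values; with these spots kept 6 were lower in every such fit. The same fits called 1773 to 3982 mRNA probes, 849 to 1928 higher and 914 to 2137 lower, and 4 to 17 list genes higher and 13 to 38 lower, against 17 and 35 in all lists.

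A 2-fold threshold called 9024 mRNA probes (3541 higher, 5483 lower) and 27 list genes higher and 63 lower, by construction. With normexp 2534 mRNA probes were called, 1500 higher and 1034 lower (59.2% higher), and with the authors' values 6149, of which 2276 higher and 3873 lower (37.0% higher), against 1910 and 2060 (48.1% higher); the authors' values gave 62 list genes lower. Probes well above background on all 6 arrays gave 1227 higher. The methods' t-test called 3526 mRNA probes unadjusted and 2738 after Benjamini-Hochberg, 1255 of them lower, with 11 list genes higher. The cause of these shifts was not tested. The median log2 fold change of all mRNA probes, -0.39, was -0.73 with quantile scaling and -0.64 with a median shift, 0.03 with normexp background correction, and -0.84 with the authors' values over 18506 probes. It ran from -0.56 to -0.07 with replicates or single arrays left out (-0.10 without neonatal replicate 1, -0.07 without neonatal replicate 2) and was 0 without the filter on dim probes, and members are to be read against it. Among counts and genes of single lists, 344 counts stayed within 1.5 times and 106 did not, and 664 fold changes kept their call and 24 lost it.

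Signal over background limits *Neurog3* in adult testis and the bounds. Members have 1 probe each, so another probe in place of the brightest gave nothing further, and 4 members had no value where replicate 1 or 2 was left out.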
